A study of Mus musculus with 35 samples.

Results

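Chromatin accessibility of mouse embryonic fibroblasts was compared on day 4 between 2 chemical cocktails that differ by Forskolin, C6FAE and C6AE. C6FAE combines CHIR99021 (C), the compound abbreviated 6, Forskolin (F), AM580 (A) and EPZ004777 (E), and C6AE is the same cocktail without Forskolin. The comparison rests on 4 ATAC-seq libraries, 2 per cocktail, out of 14 ATAC-seq libraries of 7 treatments and 35 samples in the whole series, and on the C6FAE and C6AE columns of a table of 36431 accessible regions. The other ATAC-seq treatments were CFAE, 6FAE, AE, Basal and Control, of which the names of CFAE and 6FAE include Forskolin. The compositions of Basal and Control are not spelled out in the labels. All cells were fibroblasts cultured from embryos, so every library is a bulk population in which a change in the share of cells and a change within each cell cannot be told apart.

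CHIR99021 inhibits GSK3 and thereby stabilizes beta-catenin, the compound abbreviated 6 inhibits the TGF-beta receptor ALK5, AM580 is a retinoic acid receptor agonist, and EPZ004777 inhibits the H3K79 methyltransferase DOT1L. Forskolin activates adenylyl cyclase and raises cyclic AMP, which releases the catalytic subunits of protein kinase A and leads to phosphorylation of CREB, a factor bound at cyclic AMP response elements. ATAC-seq reads accumulate where a transposase can insert adapters, at promoters and at distal regulatory elements. H3K4me3 marks active and poised promoters and H3K27me3 marks chromatin repressed by Polycomb. The positions of the files follow mouse build mm9. Genes, fibroblast markers and DNA motifs at these positions were not analysed here, so regions are given by position, accessibility, length and histone mark.

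The libraries differed in depth and in how far signal stood above background, and the C6AE libraries stood apart from each other. C6FAE-1 and C6FAE-2 held 7800792 and 5215704 tags, against 5581464 in C6AE-1 and 3346418 in C6AE-2, the fewest of the 14 ATAC-seq libraries. Peaks with a −log10 q of at least 1.3 numbered 15909 and 5567 in C6FAE and 3810 and 810 in C6AE. Of the 20000 highest-scoring peaks of each library, 53.2% of those of C6FAE-1 were met again in C6FAE-2. Only 23.4% of those of C6AE-1 were met in C6AE-2, fewer than the 47.3% met in C6FAE-1 and the 40.6% met in C6FAE-2. Likewise, C6AE-2 shared 23.9% of its peaks with C6AE-1, 28.6% with C6FAE-1 and 25.2% with C6FAE-2. By these strongest peaks the 2 C6AE libraries were less alike than either was to C6FAE. Over every listed peak this held for C6AE-1, which shared 22.9% with C6AE-2 against 29% and 43.1% with the C6FAE libraries, and not for C6AE-2, which shared 48.2% with C6AE-1 against 31.6% and 44.2%. The part of depth and background in the results that follow was not tested.

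The table regions were drawn unequally from the libraries as well. C6FAE-1 supplied the start of 6757 regions, 18.5% of all, as the matching start of a listed peak, and C6FAE-2 supplied 1882, whereas C6AE-1 supplied 1246 and C6AE-2 supplied 1111. By either end, 11420 regions took a bound from a C6FAE library and none from C6AE, 2833 took one from C6AE and none from C6FAE, 542 from both, and 21636 from other treatments only. Results are given with this origin where it changes them.

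Accessibility was higher with Forskolin in most regions of the table when the deposited RPKM (read density per kilobase, scaled to the mapped reads) was used. The median region was at 17.7 RPKM in C6FAE and 12.2 RPKM in C6AE. The middle 50% of regions lay between 11.9 and 23.3 RPKM in C6FAE and between 8.54 and 16.1 RPKM in C6AE. The median difference of log2(RPKM + 1), C6FAE minus C6AE, was 0.49, and 79.3% of regions had a positive difference. This median was 0.77 in regions bounded by C6FAE and not C6AE, and 0.39 in those bounded by other treatments only. In regions bounded by C6AE and not C6FAE it was -0.085. At least 2-fold differences on this scale, a difference of 1 or more, were counted in 6722 regions higher in C6FAE (18.5% of the table) and 1333 regions lower (3.66%), so that 83.5% of the regions that differed were higher with Forskolin.

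**Figure D1:**
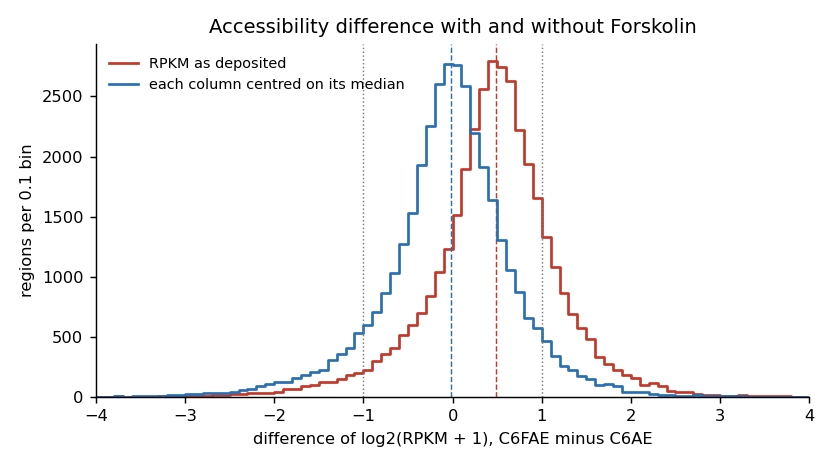
Number of regions (vertical axis, per bin of 0.1) by the difference of log2(RPKM + 1), C6FAE minus C6AE (horizontal axis), for RPKM as deposited and with each column centred on its median; dashed lines are the medians, dotted lines the 2-fold limits. The deposited values centre on 0.49 and the centred values on -0.02, with the same shape.

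Centring each column on its median, a shift of 0.51 on the log2 scale or 1.42-fold, turned the balance. The median difference became -0.02, with 2146 regions at least 2-fold higher in C6FAE (5.89%) and 3177 lower (8.72%), and 40.3% of the regions that differed were higher. The direction of the whole-table difference therefore depended on the scaling. The 2146 regions that were higher under both scalings and the 1333 that were lower under both are called the Forskolin-higher and Forskolin-lower regions here. The scalings differ by a constant, so the first set is every region higher after centring and the second every region lower as deposited. Agreement between the scalings is therefore no separate evidence. Each treatment has 1 merged column, so no error between libraries belongs to these counts.

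The counts also followed the origin of the regions. Among the 11420 regions bounded by C6FAE and not by C6AE peaks, 32.7% were at least 2-fold higher as deposited and 1 region was lower. Among the 2833 regions bounded by C6AE and not by C6FAE peaks, 1.55% were higher and 23.4% lower. In the 21636 regions bounded by other treatments only, 2918 were higher and 668 lower as deposited, a median difference of 0.39, whereas after centring 800 were higher and 2084 lower, a median difference of -0.12. Higher accessibility with Forskolin as deposited and a majority of lower regions after centring were thus also the result where neither cocktail supplied a bound. Peaks of either cocktail may still lie inside such regions. The other treatments include CFAE and 6FAE, and 8442 of the 21636 regions were bounded by AE, Basal or Control only.

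Columns that lack another chemical in place of Forskolin give a scale for these counts, and they share the C6FAE column with the comparison above. After centring, C6FAE was at least 2-fold higher than CFAE in 1559 regions (4.28%) and lower in 1765 (4.84%), and it was higher than 6FAE in 1312 (3.6%) and lower in 2401 (6.59%). As deposited, the counts against CFAE were 1357 (3.72%) higher and 2056 (5.64%) lower, and those against 6FAE were 2977 (8.17%) and 1268 (3.48%). The interquartile range of the difference was 0.76 against C6AE, 0.62 against CFAE and 0.67 against 6FAE on the log2 scale. Across the 36431 regions, log2(RPKM + 1) of C6FAE had a Pearson correlation of 0.69 with CFAE, 0.63 with 6FAE and 0.51 with C6AE, and of 0.40 to 0.45 with AE, Basal and Control. C6AE had a correlation of 0.54 with 6FAE, 0.53 with CFAE and 0.46 to 0.49 with AE, Basal and Control. Its 0.51 with C6FAE lay within this range. The columns differ in depth and the regions are not independent, so these values describe the columns and carry no test.

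Regions that differed were short and of low accessibility. Median lengths were 855 bp for Forskolin-higher, 736 bp for Forskolin-lower and 1479 bp for all regions. In the quintile of regions with the lowest mean level in the other 5 columns, 13.5% were Forskolin-higher and 12.2% Forskolin-lower. In the quintile with the highest level these shares were 1.29% and 0.576%. By length, 11.7% of the shortest quintile, 501 to 761 bp, were Forskolin-higher and 9.8% Forskolin-lower, and in the longest quintile, from 3045 bp, the shares were 0.425% and 0.0137%. The median deposited difference moved less, between 0.44 and 0.54 over the quintiles of accessibility. The spread of the difference did change: its quartiles ran from -0.35 to 1.13 in the least accessible quintile and from 0.26 to 0.74 in the most accessible. Low regions rest on few reads per region, and their part in the wider spread was not tested.

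The regions that differed lay away from H3K4me3. Of all regions, 31.2% overlapped an H3K4me3 region of the series, against 7.41% of the Forskolin-higher and 1.28% of the Forskolin-lower regions. The median distance to the nearest H3K4me3 region was 63.7 kb for Forskolin-higher and 52.4 kb for Forskolin-lower regions, and 20.8 kb for all regions. Regions with H3K4me3 and no H3K27me3, 9822 in number, were the longest class, with a median of 2923 bp, and differed by little more than the column shift. Their median was 23.4 RPKM in C6FAE and 16 RPKM in C6AE, a deposited difference of 0.52 and a centred difference of 0.02. Only 122 of them (1.24%) were Forskolin-higher and 9 (0.0916%) Forskolin-lower. The 23194 regions with neither mark held 1866 Forskolin-higher regions, 8.05% of the class, and 1173 Forskolin-lower regions, 5.06% of it. These are 87% of all Forskolin-higher and 88% of all Forskolin-lower regions, whereas the class is 63.7% of the table.

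Regions with H3K27me3 and no H3K4me3 had a balance that turned with the scaling. Of these 1879 regions, 18.7% were at least 2-fold higher in C6FAE and 7.61% lower as deposited, against 6.44% higher and 15.3% lower after centring. In regions with neither mark the centred shares were 8.05% and 12%, so lower regions also outnumbered higher ones there. Regions counted under both scalings were 121 Forskolin-higher and 143 Forskolin-lower among the H3K27me3-only regions. Their median centred difference was -0.13, and -0.22 in those bounded by other treatments only, beside -0.05 and -0.18 for regions with neither mark. The 1536 regions with both marks held 37 Forskolin-higher and 8 Forskolin-lower regions, with a median centred difference of 0.06 that became -0.02 in those bounded by other treatments only. The H3K27me3-only regions were short, with a median of 1023 bp, close to the 1092 bp of regions with neither mark.

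**Figure D2:**
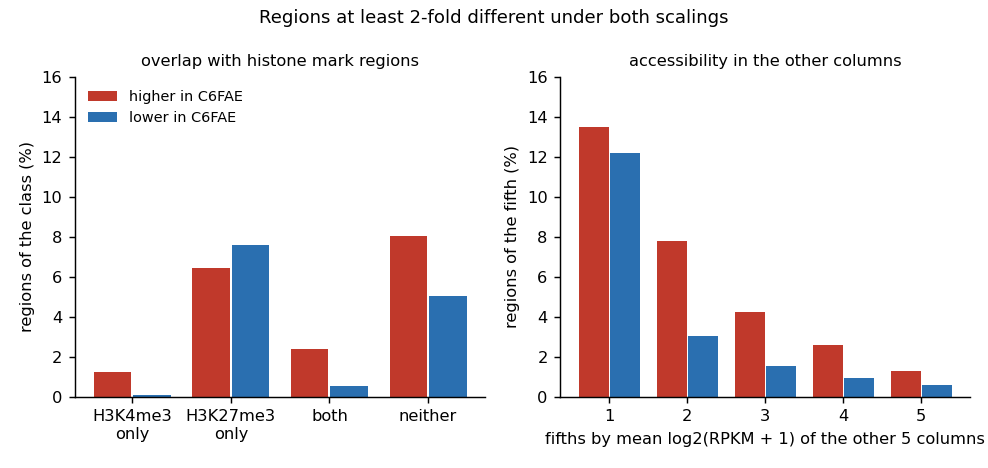
Percent of regions (vertical axis) that were Forskolin-higher or Forskolin-lower, by overlap with H3K4me3 and H3K27me3 regions (left) and by quintile of mean log2(RPKM + 1) in the 5 columns that the comparison did not use, lowest to highest (right). H3K4me3 regions and the most accessible quintile hold the fewest, 1.24% and 1.29% higher.

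The marks themselves were compared over 1 ChIP-seq library per cocktail, with no test. At the 157 H3K4me3 regions that overlapped a Forskolin-higher region, H3K4me3 was at a median of 10.8 RPKM in C6FAE and 25.1 RPKM in C6AE. This difference of -1.11 on the log2(RPKM + 1) scale stood beside -1.04 over all 12566 H3K4me3 regions, of which 53.3% were at least 2-fold lower in C6FAE. After centring, the difference was -0.06 at those 157 regions and 0.01 over all, with 3.23% of all at least 2-fold lower. At the 16 H3K4me3 regions that overlapped a Forskolin-lower region the difference was -0.35 after centring. H3K4me3 in these regions therefore showed the column shift and no median gain beside the gain in accessibility. The H3K4me3 libraries held 3296306 tags for C6FAE and 745089 for C6AE, and the part of this gap in the shift was not tested.

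H3K27me3 was also compared in this way. Centred H3K27me3 differed by a median of 0.13 at 152 mark regions over Forskolin-higher regions and by -0.06 at 145 over Forskolin-lower regions, against 0.13 over all 19224 H3K27me3 regions. The value at Forskolin-higher regions was that of all H3K27me3 regions, and the value at Forskolin-lower regions was below it. As deposited, the values were -0.69, -0.88 and -0.70, with 25.6% of all H3K27me3 regions at least 2-fold lower in C6FAE. C6FAE had 82 H3K27me3 peaks and C6AE 17766 with a −log10 q of at least 1.3, from 5919506 and 6392309 tags, so the H3K27me3 libraries were themselves unlike in enrichment.

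Both sets were spread over the chromosomes. On the autosomes and X, 4.23% to 7.71% of regions were Forskolin-higher, lowest on chromosome 11 and highest on chromosome 13, and 2.41% to 5.1% were Forskolin-lower, lowest on X and highest on chromosome 18. Within 50 kb, 15.4% of Forskolin-higher regions had another one, against 12% of all regions, and 10.1% of Forskolin-lower regions had another one, against 8.48% of all. Windows of 1 Mb were then listed by their number of such regions, chosen after the values were seen. The densest held 7 Forskolin-higher regions, at chr1:158000001-159000000 among 22 regions, at chr1:160000001-161000000 among 22 and at chr7:90000001-91000000 among 28. In the window on chromosome 7 the median region was at 22.5 RPKM in C6FAE and 10.4 RPKM in C6AE. No window held more than 5 Forskolin-lower regions. Of 1413 windows with at least 10 regions, 467 held no Forskolin-higher and 670 no Forskolin-lower region, at a median of 20 regions per window. These counts were not set against an even spread.

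The levels of these regions in treatments that share no library with the comparison were read from the merged columns. As deposited, Forskolin-higher regions had medians of 21.3 RPKM in C6FAE and 4.97 RPKM in C6AE, the columns that chose them, and of 15.4 RPKM in CFAE and 11.8 RPKM in 6FAE, against 9.49 RPKM in AE, 9.23 RPKM in Basal and 7.36 RPKM in Control. Relative to each column's median, they were at -0.25 in CFAE and -0.26 in 6FAE on the log2 scale, above -0.73 in AE, -0.60 in Basal and -0.59 in Control. Forskolin-lower regions were at 15.3 RPKM in C6AE and 4.65 RPKM in C6FAE, and between 7 and 8.62 RPKM in the other 5 columns. Their levels in CFAE and 6FAE, 7.95 and 7.7 RPKM, lay inside the range of AE, Basal and Control. Relative to each column's median, they were at -1.13 in CFAE, below -1.001 in AE, -0.69 in Basal and -0.65 in Control, and at -0.82 in 6FAE, inside that range. The Forskolin-higher regions were thus more accessible in both other cocktails with Forskolin than in the treatments named without it. The choice set C6AE above C6FAE in the Forskolin-lower regions, and a region high in C6AE for any reason could enter them. It did not set C6AE above AE, Basal and Control, and why C6AE stood above them was not tested. CFAE and 6FAE differ from AE, Basal and Control by more than Forskolin.

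**Figure D3:**
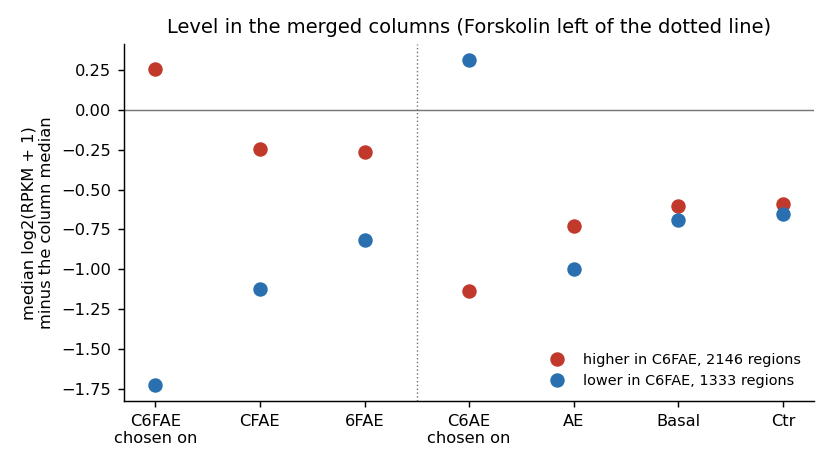
Median log2(RPKM + 1) of the 2146 Forskolin-higher and 1333 Forskolin-lower regions in each merged column, minus that column's median over all regions (vertical axis, log2 units); cocktails with Forskolin are left of the dotted line. Forskolin-higher regions sit at -0.25 and -0.26 in CFAE and 6FAE and between -0.73 and -0.59 in AE, Basal and Control.

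This pattern was also read by which libraries had defined the regions. CFAE and 6FAE were both above AE, Basal and Control in 818 of the Forskolin-higher regions, or 38.1%, beside 19.7% of all regions, and after centring in 678, or 31.6%, beside 14.5%. Regions bounded by peaks of C6FAE or C6AE only, 6798 in number, shared no bound with a library of these 5 treatments. The absence of such a bound was thus part of their choice. There the share was 394 of 994 Forskolin-higher regions, 39.6% beside 26.8% as deposited, and 294, or 29.6% beside 18.9%, after centring. The 6798 mix regions bounded by either cocktail. Of all Forskolin-higher regions, 1338 took a bound from C6FAE and not C6AE, and 4 the reverse, so this background was not matched by cocktail. The median difference of the mean of CFAE and 6FAE minus the mean of AE, Basal and Control in those 994 regions was 0.54 beside 0.29 in all 6798, and 0.34 beside 0.09 after centring. In 269 Forskolin-higher regions bounded by AE, Basal or Control peaks only, the median difference was -0.25, near the -0.19 of all 8442 regions of that origin, and 3 of them were above in both columns (1.12% beside 1.39%). The 269 regions and the 8442 beside them entered the table through the columns that are subtracted, so the sign alone was not read. Within this origin the Forskolin-higher regions showed no excess in CFAE and 6FAE. After centring the median differences were -0.45 and -0.39.

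For Forskolin-lower regions, CFAE and 6FAE were both below AE, Basal and Control in 157, or 11.8%, beside 5.33% of all regions, and after centring in 237, or 17.8%, beside 14.1%. In the 621 Forskolin-lower regions bounded by C6FAE or C6AE peaks only, the median difference was 0.09 as deposited and -0.11 after centring, below the 0.29 and 0.09 of all regions of that origin.

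The libraries were then kept apart through their peak lists. In each table region the fold enrichment of the highest listed peak was taken, and 1 was used where a library listed no peak. Both C6FAE libraries were above both C6AE libraries in 13711 regions (37.6%) and below both in 1321 (3.63%). Among Forskolin-higher regions these counts were 1652 (77%) and 1, and among Forskolin-lower regions 0 and 474 (35.6%). These come from the same reads as the merged columns and describe the sets. The 2 C6AE libraries contributed unequally to them. A peak was listed in 65.9% of Forskolin-higher regions in C6AE-1 and in 12.9% in C6AE-2, against 92.7% in C6FAE-1 and 93.4% in C6FAE-2. Over all regions the shares were 91.4%, 66.1%, 88.6% and 90.1%. In Forskolin-lower regions a peak was listed about equally often in C6AE-1 and C6AE-2, in 76% and 77.2%. One of the highest 20000 peaks lay there in 13% of regions for C6AE-1 and in 46.8% for C6AE-2. Over all regions these shares were 32% and 21.1%. Strong peaks were thus fewer than in all regions for C6AE-1 and more frequent for C6AE-2. How much each library gave to the merged RPKM was not tested.

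No region was called between the cocktails when the spread between libraries was taken into account, though the test had little room to call one. limma, fitted to log2 fold enrichment over all 14 libraries with 7 residual degrees of freedom, called 0 of 36431 regions higher (0%) and 0 lower (0%) at a Benjamini-Hochberg adjusted p of 0.05, with a smallest adjusted p of 0.40. At an unadjusted p under 0.05, 4173 regions (11.5%) passed, 3892 higher in C6FAE and 281 lower. The median log2 difference was 0.30. With each library centred on its median, 1750 higher and 723 lower regions passed unadjusted, and 0 passed after adjustment. Setting fold enrichment to 1 where no peak is listed limits the difference that limma can see. The region with the greatest increase in RPKM + 1, 27.3-fold, had a peak in both C6FAE libraries and neither C6AE library. Without centring, limma gave it a difference of 1.34 with an SE of 0.53, an unadjusted p of 0.0195 and an adjusted p of 0.41. The 0 calls therefore do not show that accessibility was alike. Without C6AE-1, limma called 205 regions higher in C6FAE and 0 lower. All 205 had no listed peak in C6AE-2, the one C6AE library then left, and 204 had one in C6AE-1. With 2 libraries against 2, an exact permutation test of a single value cannot go below a two-sided p of 0.33.

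A listed peak in both libraries of 1 cocktail and neither of the other was found in 783 regions for C6FAE (2.15%) and 385 for C6AE (1.06%). The median deposited difference was 1.65 in the first and -1.39 in the second. Of the 783, 461 were Forskolin-higher, and of the 385, 277 were Forskolin-lower. The regions with the greatest increase and decrease among them are described next. All 10 lay in none of the H3K4me3 or H3K27me3 regions, and each took its bounds from a library of the cocktail in which it was higher.

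The greatest increase (gain 1) was at chr13:111627056-111627585, a region of 530 bp. It stood at 26.3 RPKM in C6FAE and was listed at 0 in C6AE, with 28.8 RPKM in CFAE, 10.5 RPKM in 6FAE, 6.12 RPKM in AE, 5.64 RPKM in Basal and 11 RPKM in Control. Fold enrichment was 2.04 in C6FAE-1 and 3.15 in C6FAE-2, and 2.52 and 3.15 in CFAE-1 and CFAE-2. The level in CFAE was no lower than in the full cocktail, while 6FAE lay near Control. The limma difference was 1.34 with an SE of 0.53 and an adjusted p of 0.41.

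The region at chr12:7078904-7079966 (gain 4) was higher in the merged columns with Forskolin than in those without it. It was at 19.2 RPKM in C6FAE, 10.6 RPKM in 6FAE and 9.6 RPKM in CFAE. In C6AE it was at 0.491 RPKM, in AE at 3.62 RPKM, in Basal at 2.92 RPKM and in Control at 1.76 RPKM. All 3 columns with Forskolin exceeded all 4 without it, though C6FAE and C6AE chose the region. CFAE and 6FAE were both above AE, Basal and Control in 38.1% of Forskolin-higher regions and 19.7% of all regions. Fold enrichment at gain 4 was 3.25 and 2.6 in C6FAE, with no listed peak in C6AE. It was 1.81 and 3.16 in 6FAE and 2.3 in CFAE-1, while CFAE-2 listed no peak and AE-2 listed one at 1.76. For this region limma gave a difference of 1.54 with an SE of 0.53 and an adjusted p of 0.41.

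The columns with Forskolin were also the 3 highest at chr1:65557947-65558787 (gain 5), 841 bp long. It was at 23.2 RPKM in C6FAE, 17.3 RPKM in CFAE and 9.33 RPKM in 6FAE, and at 0.81 RPKM in C6AE. AE, Basal and Control were between 4.14 and 4.44 RPKM. Fold enrichment was 3.12 and 2.31 in the C6FAE libraries, 3.16 in CFAE-1 and 2.17 in 6FAE-2, and no other library listed a peak.

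The other increases did not separate the columns by Forskolin. At chr1:160780590-160781240 (gain 3), inside 1 of the densest windows, C6FAE was at 22.9 RPKM and C6AE at 0.298 RPKM, but AE was at 25.1 RPKM, above CFAE at 22.5 RPKM and 6FAE at 19.2 RPKM. C6AE was the lowest column there, and Basal at 7.21 RPKM and Control at 5.02 RPKM were low as well. At chr16:29696812-29697312 (gain 2), C6FAE was at 18.8 RPKM and C6AE was listed at 0, while CFAE and 6FAE were at 4.99 and 4.75 RPKM and Basal at 14.6 RPKM. For the 5 increases, the limma adjusted p was 0.41 to 0.42.

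**Figure D4:**
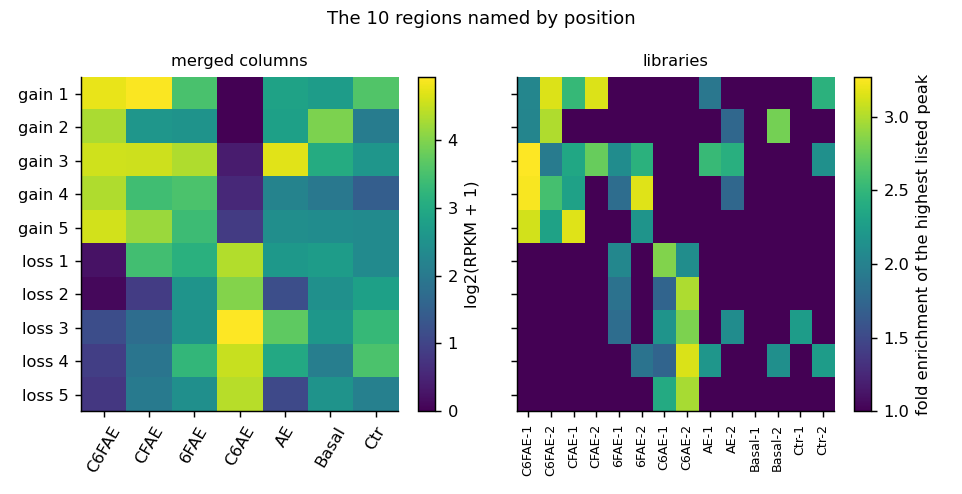
The 5 greatest increases (gain) and 5 greatest decreases (loss) as log2(RPKM + 1) in the merged columns (left) and as fold enrichment of the highest listed peak in the 14 libraries, 1 where none is listed (right). Gain 4 and gain 5 are higher in all 3 columns with Forskolin than in the 4 without, and the losses are highest in C6AE.

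The greatest decreases were high in C6AE above all other treatments. At chr6:116890328-116890951 (loss 1) accessibility was 19.6 RPKM in C6AE and 0.18 RPKM in C6FAE, with 4.12 to 9.87 RPKM in the other 5 columns, CFAE being the highest of them. Fold enrichment was 2.83 in C6AE-1 and 2.11 in C6AE-2, and limma gave -1.29 with an SE of 0.54 and an adjusted p of 0.41. At chr17:58595089-58595758 (loss 2) it was 15.1 RPKM in C6AE, 0.0734 RPKM in C6FAE and 0.84 RPKM in CFAE, but 4.85 RPKM in 6FAE, above the 1.29 RPKM of AE.

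The remaining decreases had the same form. At chr12:3767236-3767760 (loss 3), the values were 29.4 RPKM in C6AE, 1.23 RPKM in C6FAE and 12 RPKM in AE, the next highest column. At chr6:118173352-118173972 (loss 4) they were 21.8 RPKM in C6AE and 0.874 RPKM in C6FAE, with 10.5 RPKM in Control. At chr7:107404233-107404897 (loss 5) they were 20 RPKM in C6AE and 0.73 RPKM in C6FAE, and 4.77 RPKM or less elsewhere. In each of the 5 decreases, C6FAE was the lowest and C6AE the highest of the 7 columns, these being the columns that chose them. Fold enrichment in C6AE lay between 1.73 and 2.83 in C6AE-1 and between 2.11 and 3.14 in C6AE-2, and the adjusted p was 0.41 to 0.44.

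The 4 peak lists were also compared without the table. The 20000 highest-scoring peaks of each library merged into 52422 peaks, of which 2527 (4.82%) were found in both C6FAE libraries and neither C6AE library, and 282 (0.538%) in both C6AE libraries and neither C6FAE library. Peaks of both libraries of both cocktails numbered 3849. With a −log10 q of at least 1.3 in place of equal list lengths, the counts were 2391 (14.2%) and 1 (0.00594%) of 16829. With every listed peak they were 22224 (2.55%) and 25149 (2.88%) of 873240, so the order of the 2 counts depended on the peak threshold. These counts required both libraries, and the C6AE libraries shared few peaks. Leaving out 1 library gave 3235 and 9782 without C6AE-2, 5967 and 13834 without C6AE-1, 10915 and 707 without C6FAE-1, and 9267 and 396 without C6FAE-2, C6FAE first. The cocktail that lost a library then needed a peak in 1 library and the other cocktail still in 2, so the larger count always fell to the cocktail with 1 library and the order in these counts carries no information on stability.

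Of the 2527 peaks found for C6FAE only, 97.4% lay in table regions and 41.4% in H3K4me3 regions, beside 46.6% and 21.4% of all 52422 merged peaks. In Forskolin-higher regions lay 325 of the 2527, beside 1396 of the 52422. For the 282 peaks of C6AE only the shares were 69.5% and 25.9%, and 24 of them lay in Forskolin-lower regions, beside 788 of the 52422. The peaks and the regions come from the same reads, so these overlaps describe the sets. Of the 3849 peaks of both cocktails, 87.5% lay in H3K4me3 regions. Peaks of each of these sets overlapped H3K4me3 more often than all merged peaks did. They had to be found in both libraries of a cocktail, and the 52422 did not, so the backgrounds are unlike. The 7.41% of Forskolin-higher regions beside 31.2% of all regions rests on another background and is not comparable. Among the strongest 20000 peaks of the other treatments, the peaks of C6FAE only were met in 56.4% and 59.5% of cases in CFAE-1 and CFAE-2. In 6FAE they were met in 64.9% in 6FAE-2 but 18.8% in 6FAE-1. In AE, Basal and Control libraries the shares were 22.2% to 39.8%, so 6FAE-1 lay below all of them and the libraries were not separated by Forskolin. Over all merged peaks the shares were 25.8% and 27.4% in CFAE, 13.7% and 28.1% in 6FAE and 15.1% to 22.6% in AE, Basal and Control, again with 6FAE-1 lowest and 6FAE-2 highest. The 282 peaks found for C6AE only were met in 16.3% to 35.5% of cases over all 10 libraries of the other treatments.

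Peaks that told the cocktails apart in 1 pair of libraries were looked for in the remaining pair. Among the 20000 highest peaks, those present in 1 C6FAE library and absent from 1 C6AE library were met in the other C6FAE library in 27.8% to 42.2% of cases and in the other C6AE library in 8.32% to 35.7%. The share was higher in C6FAE in all 4 choices. Peaks present in 1 C6AE library and absent from 1 C6FAE library were met in the other C6AE library in 3.19% to 6.02% of cases and in the other C6FAE library in 3.14% to 17.7%. In 3 of these 4 choices the share was higher in C6FAE, the cocktail from whose other library the peaks were absent. With the q threshold of 1.3 (−log10) the shares were 20.4% to 88.2% and 1.75% to 40.1% for C6FAE peaks, and 0.563% to 21.5% and 8.62% to 75.7% for C6AE peaks. The lists differ in length at that threshold, and C6AE-2 shared no more than 28.6% of its strongest 20000 peaks with any of the other 3 libraries. The part of these library differences in the shares was not tested, and they cannot be told apart from the cocktails. These shares describe the lists and were not set against a value for no difference.

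**Figure D5:**
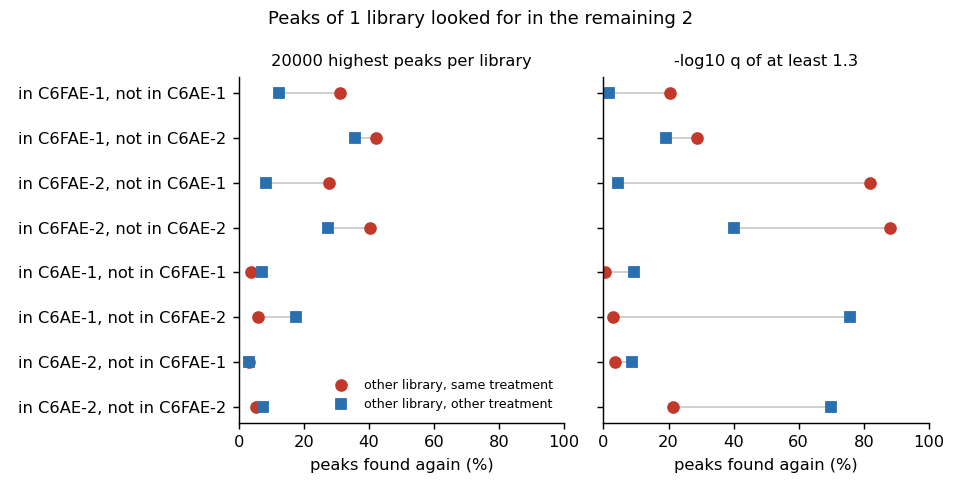
Percent of peaks (horizontal axis) present in 1 library and absent from 1 library of the other cocktail that were met again in the other library of the same cocktail (circles) or of the other cocktail (squares), for 20000 peaks per library (left) and −log10 q of at least 1.3 (right). Circles lie right of squares for all C6FAE choices, and left of them for 3 of 4 C6AE choices on the left and all 4 on the right.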

How the data were processed

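ATAC-seq libraries (2 per treatment) and H3K4me3 and H3K27me3 ChIP-seq libraries (1 per treatment) of day 4 fibroblasts were used. Per the file headers, the authors ran MACS 2.1.2 on every library (p cutoff 0.05, no local lambda, fragments of 250 bp from 150 bp tags, duplicates reduced to 1 tag), in broad mode for ATAC-seq and H3K27me3 and in narrow mode for H3K4me3, using input for the ChIP-seq. The deposited lists give −log10 p and −log10 q values as MACS wrote them (the headers state that q was not calculated, yet the column holds values), fold enrichment as a ratio to the modelled background, and the pileup signal of tags. The authors' RPKM tables give the mean over bins of each region, merged over libraries for ATAC-seq. The submitters' processing notes name Bowtie2, deepTools 3.1.0 and build mm9. How table regions were chosen is not given in the sources used here. Gene names, motifs and sequences need mm9 and were not analysed here, so the gene and marker lists were not used. A total of 2 table columns without a mapped sample were not used, and 3 ChIP-seq samples titled Ctr but labelled C6FAE were left unassigned.

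RPKM was compared as log2(RPKM + 1), with a pseudocount of 1, as deposited and with each column centred on its median, without a filter. A region differed at 2-fold. Merged columns have no replicates, so no test was made on them. Peaks were matched at an overlap of 1 bp. limma 3.58.1 in R 4.3.3 was fitted with a trend to log2 fold enrichment in the regions, with Benjamini-Hochberg adjustment, and no other test was run. The study's methods describe the ATAC-seq libraries of Control and of the full cocktail as biological replicates. For C6AE and the other partial cocktails no source used here says whether the 2 libraries came from separate cultures, so for those the spread between libraries, which p-values measure, may be technical. Total tags ranged from 3346418 to 8764791 over the ATAC-seq libraries, and without molecular identifiers reads may repeat a molecule. Regions were named by position as the 5 largest increases and decreases of log2(RPKM + 1) among regions with a listed peak in both libraries of 1 treatment and neither of the other, chromosome 18 left out. The comparison, sets and lists were chosen with earlier results of these data known. Region counting, peak matching and limma were tested on simulated data. The remaining steps ran in Python 3.11.15 (pandas 2.3.3, numpy 2.4.6, matplotlib 3.10.9, scipy 1.17.1).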

Additional observations from a re-analysis of the deposited data

How the results depend on the processing

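Counts, shares and medians of table regions depended on the scaling. Median centring gave 2146 higher and 3177 lower regions in C6FAE, a share of 40.3% higher and a median difference of -0.018. With quantile normalization these were 2584, 2699, 48.9% and 0.010, and with columns centred on the most open 10% of regions 1882, 3447, 35.3% and -0.068. A pseudocount of 10 gave 1251, 213, 85.5% and 0.31, and a pseudocount of 0.1 a median of 0.52. After removal of the 25% of regions lowest in mean RPKM, 548 were lower, the share was 90.2% and the median 0.54. A 1.5-fold threshold gave 15575, 2682 and 85.3%. The restrictions by region origin were chosen after seeing the data. In regions bounded by other treatments only, the counts were 2918 and 668, the share 81.4% and the median 0.39, and with centring 800, 2084, 27.7% and -0.12. Restriction to autosomes changed none of these counts by over 1.5 times. That a scaling moves the median follows from its construction, and the cause of the other changes was not tested.

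For merged peaks in C6FAE only and C6AE only, every listed peak gave 22224 and 25149, a −log10 q of at least 5 gave 141 and 0, a −log10 q of at least 1.3 gave 1 for C6AE, the 5000 highest peaks gave 645 and 154, an overlap of at least 50% gave 170 for C6AE, and a peak in at least 1 library gave 17508 and 23276. Leaving out 1 library gave 3235 to 10915 for C6FAE and 396 to 13834 for C6AE, with 1 library required of the cocktail that lost it and 2 of the other.

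In the columns that share no library with the comparison, the median difference in Forskolin-higher regions was 0.52 as deposited and 0.31 centred. In regions bounded by AE, Basal or Control it became -0.25 and, centred, -0.45, and in those bounded by C6FAE or C6AE it was 0.34 centred. For Forskolin-lower regions it was -0.03 as deposited, -0.23 centred, -0.42 and, centred, -0.63 by the first origin, and 0.092 and, centred, -0.11 by the second. Centring moved the H3K4me3 difference from -1.11 to -0.058 at Forskolin-higher and from -1.40 to -0.35 at Forskolin-lower regions, and the H3K27me3 difference from -0.69 to 0.13 and from -0.88 to -0.060.

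limma called 0 regions in either direction with centring, quantile normalization, regions with a listed peak in at least 2 of the 4 libraries, pileup scaled to total tags, and the 4 libraries alone, with smallest adjusted p-values of 0.319 to 0.568 over these 5. Leaving out 1 library gave 0 to 205 regions higher and 0 lower. The cocktails share replicate numbers 1 and 2, and with the replicate block limma also called 0 regions, with 3850 against 4173 at an unadjusted p under 0.05. The deviations of same-numbered libraries correlated at 0.02 across regions, so the numbers were not taken to pair the libraries. Alternatives on gene distance and motif window were not run, because they need mm9. C6AE-2, the library with the fewest tags, listed no peak in 33.9% of regions, where its fold enrichment was set to 1 and not measured.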
